A study of Mus musculus with 12 samples.

Results

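Rpph1 is the catalytic RNA of nuclear ribonuclease P, and Rmrp is the RNA of the related ribonuclease MRP. The data described here are the levels of these 2 RNAs and of 8 listed protein subunits that bind them, Pop1, Pop4, Pop5, Pop7, Rpp25, Rpp30, Rpp38 and Rpp40, in NR5A1(+) cells of fetal mouse gonads. The 10 genes were taken by their symbols out of 24411 symbols in each of 12 libraries. The 2 RNAs were chosen by their measured share of these libraries, which was known to be large, so their levels and differences are given as a description, without a test. The protein subunits were picked for what they bind, though with earlier results of these data known. Their differences were read from a fit across all genes.

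Ribonuclease P cuts the leader off the 5′ end of precursor tRNAs, with its RNA as the catalyst. Ribonuclease MRP is a sister enzyme of the nucleolus that cuts ribosomal RNA precursors, and mutations of its RNA cause cartilage-hair hypoplasia in people. Both RNAs are short, carry no poly(A) tail and are made by RNA polymerase III, and the enzymes share most of their protein subunits. Random-primed libraries from total RNA can read such RNAs, which poly(A) selection would miss.

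The study measured RNA from NR5A1(+) cells, the somatic cells of the early gonad, of embryos of the genotype Nr5a1-hCD271, which every group carried. NR5A1 is a nuclear receptor that marks these cells, and hCD271 is a human cell-surface protein used as a tag. Gonads taken at E10.8 with the aorta, mesonephros and mesenchyme attached were kept for 19.2 h on filters in a medium of DMEM and 10% horse serum, and gave 3 XY libraries and 2 XX libraries without treatment, called control here. A further 3 XY libraries came from cultures with 150 µM Dfo, the iron chelator deferoxamine, and 2 XY and 2 XX libraries came from gonads labelled E11.5 and WT. The E11.5 samples carry the same protocol text, which leaves their collection undescribed. No label says that replicates came from separate embryos. A p-value here sets a difference of groups against the spread of libraries within groups, pooled over all 12 libraries. That spread may be technical.

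Values are TPM (transcript abundance scaled to a common sum), which keep no record of depth, so the depth is unknown. Because that sum is fixed, a larger share for 1 RNA lowers the TPM of every other gene. Ddx3y, a gene of the Y chromosome, was at 28.4 to 41.5 TPM in the 8 XY libraries and at most 0.06 TPM in the 4 XX libraries. Xist, the RNA of the inactive X, was at 13.6 and 24.6 TPM in Dfo XY replicates 1 and 2 and at most 0.90 TPM in the other 6 XY libraries, against 124 to 175 TPM in XX libraries. Replicates 1 and 2 of control XY were closer to each other than other pairs, with a median absolute log2 difference of 0.064 over 3051 genes, as were replicates 1 and 2 of Dfo XY with 0.074, against 0.113 to 0.200 for the other pairs. All 8 of 8 gonadal somatic markers were detected, and their summed level was 615 to 1527 TPM. Erythroid markers, 8 of 8 detected with Hbb-bs listed at 0 throughout the cultured groups, summed to 233 to 3363 TPM. Summed over 8 of 8 markers each, endothelial genes reached 72.2 to 344 TPM, macrophage genes 19.4 to 125 TPM and mesonephric genes 59.2 to 175 TPM. Neural crest genes reached 34.8 to 164 TPM and germ cell genes 19.3 to 41.1 TPM. Kit was the largest part of the germ cell sum in every library, at 14.3 to 20.9 TPM. Ddx4 was at most 1.44 TPM and Dazl at most 1.93 TPM. Dazl and Tyrobp were listed at 0 in cultured XX and Nanos3 in E11.5 XY.

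The 2 RNAs are shown because all of the share described below falls on these short stretches, and because each lies under an exon of another gene. Rpph1 stands on the minus strand at chr14:50807449-50807767 of mm10 and is 319 bases long, in GENCODE M21. Rmrp stands on the minus strand at chr4:43492788-43493058 and is 271 bases long, and a second model of the same symbol, of 281 bases, extends it at both ends. Both run 5′ to 3′ below, Rpph1 with the first 300 bases and Rmrp whole. Capitals mark the bases that an exon of another annotated transcript also covers, a Ccnb1ip1 exon on the same strand for Rpph1 (bases 36 to 268) and a Ccdc107 exon on the opposite strand for Rmrp (bases 36 to 159).
Rpph1: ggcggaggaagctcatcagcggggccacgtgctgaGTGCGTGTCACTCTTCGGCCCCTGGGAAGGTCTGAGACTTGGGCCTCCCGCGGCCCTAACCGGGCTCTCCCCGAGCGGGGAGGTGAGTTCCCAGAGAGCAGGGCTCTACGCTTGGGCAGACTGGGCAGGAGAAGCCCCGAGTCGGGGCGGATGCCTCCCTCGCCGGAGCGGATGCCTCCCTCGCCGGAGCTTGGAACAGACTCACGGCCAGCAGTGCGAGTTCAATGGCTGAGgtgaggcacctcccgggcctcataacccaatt
Rmrp: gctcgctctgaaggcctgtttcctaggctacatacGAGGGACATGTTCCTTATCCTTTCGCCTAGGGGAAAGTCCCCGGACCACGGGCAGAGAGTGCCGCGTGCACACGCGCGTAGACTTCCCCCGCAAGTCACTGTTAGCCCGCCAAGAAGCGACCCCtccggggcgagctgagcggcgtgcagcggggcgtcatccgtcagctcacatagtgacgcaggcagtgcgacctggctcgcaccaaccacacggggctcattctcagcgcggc
The overlapping genes were at far lower levels. Ccnb1ip1, a gene of meiotic crossing-over, was listed at 0 in 10 of 12 libraries and reached 0.16 TPM in control XY replicate 2 and 1.04 TPM in E11.5 XY replicate 2. Ccdc107, which codes for a coiled-coil protein, was at 8.66 to 31.8 TPM. Parp2, a DNA repair gene that starts 74 bases beyond the 5′ end of Rpph1 and runs the other way, was at 17.9 to 39.0 TPM. These 3 neighbours were looked up after the values of the RNAs had been seen.

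Rpph1 holds a run of 21 bases, ggatgcctccctcgccggagc, 2 times in tandem at bases 184 to 225 counted from its 5′ end. The mouse genome also holds RNase P RNA-like copies, and the exact unit occurs 0 times in Rprl1, Rprl2 and Rprl3. Over aligned bases Rprl3 was 86.6% identical to Rpph1, Rprl2 86.3%, and the longer and the shorter transcript of Rprl1 81.4% and 91.0%. Rprl2 was listed at 0 in every library. Rprl1 and Rprl3 were listed at 0 in 11 of 12 libraries and at 11.2 and 11.46 TPM in control XY replicate 3. No source used here tells how reads shared between Rpph1 and its copies were divided, so the values of the copies are uncertain.

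Rpph1 ranked first and Rmrp second of all genes in each of the 12 libraries. Rpph1 was at 193121, 203204 and 152940 TPM in control XY replicates 1 to 3, and Dfo XY held 235949, 232457 and 194876 TPM. It was at 71987 and 69632 TPM in control XX, at 121778 and 120243 TPM in E11.5 XY and at 85683 and 114675 TPM in E11.5 XX. The cultured XY libraries were the highest and the cultured XX libraries the lowest, and each of the 8 XY libraries was above each of the 4 XX libraries. In bulk samples, fewer cells of a type and less RNA per cell cannot be told apart.

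As a share of all TPM, Rpph1 took 18.3% ± 2.66 (SD, n = 3) of control XY, 22.1% ± 2.28 (n = 3) of Dfo XY and 7.08% ± 0.166 (n = 2) of control XX. It took 12.1% ± 0.109 (n = 2) of E11.5 XY and 10.0% ± 2.05 (n = 2) of E11.5 XX. From the highest mean down, the order was Dfo XY, control XY, E11.5 XY, E11.5 XX and control XX. In that order the single libraries of Dfo XY and control XY overlapped, and those of no other neighbours did.

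Rmrp was at 46449, 43849 and 34871 TPM in untreated XY cultures, and at 49234, 50644 and 45337 TPM in Dfo XY. It was at 20899 and 21317 TPM in control XX, at 28244 and 29045 TPM in E11.5 XY and at 27464 and 32286 TPM in E11.5 XX. Its share was 4.17% ± 0.608 (SD, n = 3), 4.84% ± 0.275 (n = 3), 2.11% ± 0.0296 (n = 2), 2.86% ± 0.0567 (n = 2) and 2.99% ± 0.341 (n = 2) of the same groups. The cultured groups thus stood in the same order as for Rpph1, while the E11.5 sexes overlapped.

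**Figure D1:**
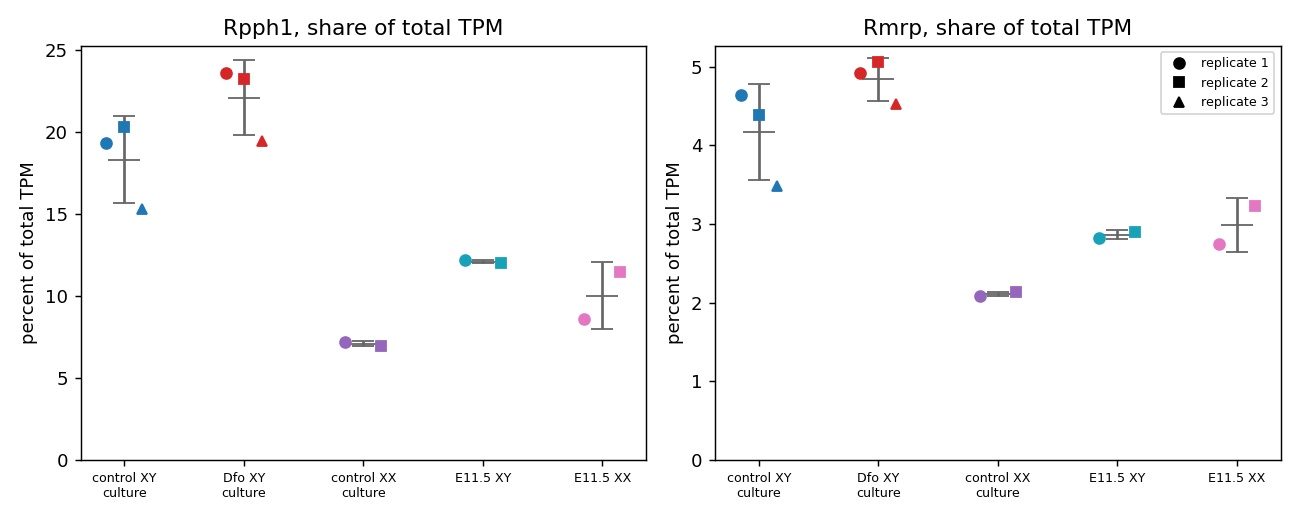
Share of total TPM held by Rpph1 and by Rmrp, in percent, in each of the 12 libraries by group; points are libraries and crossbars are the mean ± SD. Rpph1 lies between 6.96% and 23.6% and Rmrp between 2.09% and 5.06%, with cultured XX lowest in both panels.

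Both RNAs together held 9.09% to 28.5% of a library's TPM. The gene in the third place, Snord17 (a nucleolar guide RNA) or Rn45s (the ribosomal RNA precursor), was at 9970 to 18491 TPM, and Rpph1 was 4.61 to 22.7 times that gene. TPM divides by transcript length, so a short RNA takes a larger share of TPM than of sequenced bases. Weighted by median annotated transcript length, Rpph1 took 1.75% to 7.54% and Rmrp 0.458% to 1.41% of the total, and cultured XX again stood lowest. The lengths by which the deposited TPM were divided are not known, so these weighted values are not shares of sequenced bases.

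The ratio of Rpph1 to Rmrp does not depend on how a library is scaled. Control XY gave 4.16, 4.63 and 4.39, while Dfo XY gave 4.79, 4.59 and 4.30. It was 3.44 and 3.27 in control XX, 4.31 and 4.14 in E11.5 XY, and 3.12 and 3.55 in E11.5 XX. All 8 XY libraries, at 4.14 to 4.79, were above all 4 XX libraries, at 3.12 to 3.55, in culture and at E11.5 alike. Rpph1 thus differed between the sexes by more than Rmrp did.

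The 8 protein subunits were far less abundant than either RNA in every library. Among them, Pop4 and Rpp25 were the most abundant in every library, and Rpp40 was the least abundant. Pop1, the largest subunit and a scaffold along the RNA, ranged from 11.1 to 21.5 TPM over the 12 libraries. Pop4 and Pop5, subunits with counterparts in archaeal RNase P, ranged from 40.5 to 72.8 TPM and from 11.8 to 25.6 TPM. Pop7 and Rpp25 form a pair that binds RNA, and ranged from 6.25 to 24.8 TPM and from 30.1 to 128.6 TPM. Rpp30, a partner of Pop5, and Rpp38, which binds kink turns in RNA, ranged from 7.67 to 17.9 TPM and from 8.76 to 17.6 TPM. Rpp40 ranged from 1.44 to 8.16 TPM. The coefficient of variation over the 12 libraries was highest for Rpp40 (46.1%) and Rpp25 (42.4%), next to 40.5% for Rpph1 and 30.2% for Rmrp, and lowest for Pop4 (17.99%).

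Summed over the 8 subunits, control XY libraries held 193, 209 and 193 TPM, while Dfo XY libraries held 144, 161 and 151 TPM. The sum was 270.3 and 245 TPM in control XX, 199.8 and 205 TPM in E11.5 XY, and 213 and 232 TPM in E11.5 XX. By this sum the order of the groups was the reverse of that of Rpph1, with Dfo XY lowest and cultured XX highest. Rpp25 alone held 128.6 and 85.7 TPM of the sum in control XX. The median subunit did not follow that order, at a group mean of 13.7 TPM in Dfo XY and 16.2 TPM in control XX. It was at 16.7 TPM in E11.5 XX, 18.4 TPM in control XY and 19.2 TPM in E11.5 XY. With each library rescaled to its usual sum after leaving out the 2 RNAs, the subunits summed to 256.6 ± 20.2 (SD, n = 3) in control XY, 208.1 ± 13.96 (n = 3) in Dfo XY and 284.0 ± 19.7 (n = 2) in control XX. The sum was 237.7 ± 3.82 (n = 2) in E11.5 XY and 256.2 ± 22.3 (n = 2) in E11.5 XX. On this scale Dfo XY, at 198 to 224, was still below every other library. Control XY, at 238 to 278, overlapped with control XX, at 270.1 to 298. The mean of control XY was above that of E11.5 XY here, so the reversed order did not hold in full.

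**Figure D2:**
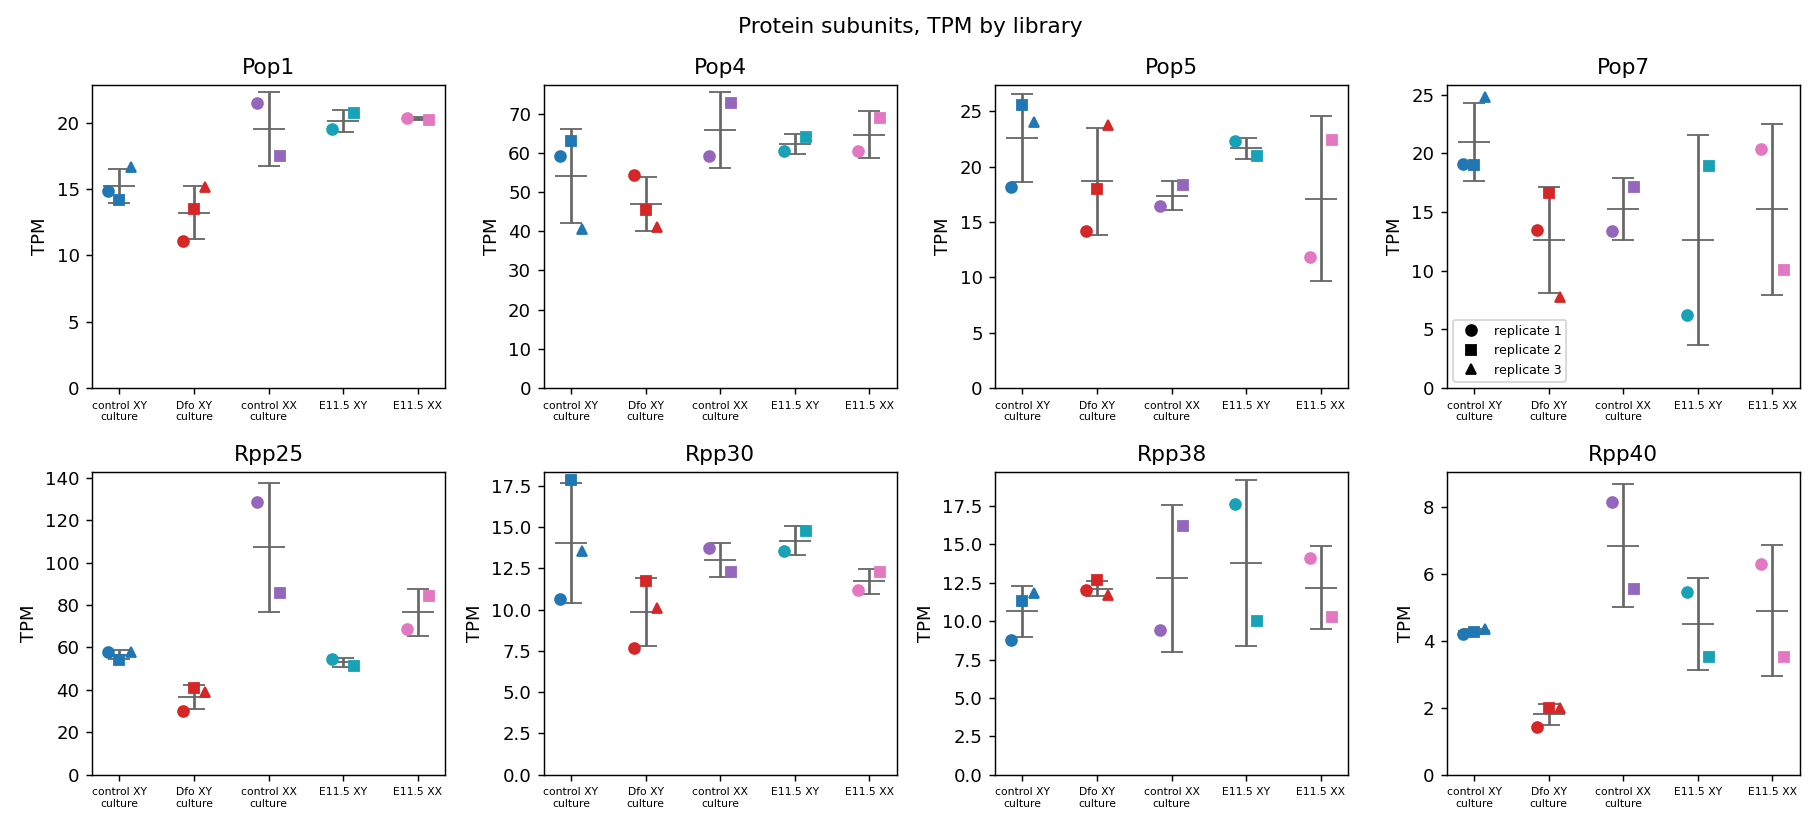
Level in TPM of each of the 8 protein subunits in the 12 libraries by group; points are libraries and crossbars are the mean ± SD. Rpp25 and Rpp40 are lowest in Dfo XY, at 30.1 to 40.6 TPM and 1.44 to 1.99 TPM, and Rpp25 is highest in cultured XX, at 85.7 and 128.6 TPM.

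The ratio of an RNA to the mean of the 8 subunits, taken within a library, is again free of scaling. For Rpph1 the log2 ratio was 12.97, 12.92 and 12.63 in untreated XY cultures, and 13.67, 13.50 and 13.34 with Dfo. It was 11.06 and 11.15 in control XX, 12.25 and 12.20 in E11.5 XY, and 11.65 and 11.95 in E11.5 XX. Against this mean, no 2 of the 5 groups overlapped. Against the median subunit the E11.5 sexes did overlap, at 12.68 and 12.57 in XY and 12.28 and 12.78 in XX. As a fold, Rpph1 was 2131 to 2269 times the subunit mean in control XX and 10355 to 13071 times in Dfo XY. For Rmrp the log2 ratio was 10.71 ± 0.209 (SD, n = 3) in control XY, 11.32 ± 0.0906 (n = 3) in Dfo XY and 9.36 ± 0.118 (n = 2) in control XX. It was 10.15 ± 0.00447 (n = 2) in E11.5 XY and 10.06 ± 0.0787 (n = 2) in E11.5 XX. Against the median subunit in place of the mean, Rmrp stood higher in E11.5 XX (10.797) than in E11.5 XY (10.54). These RNAs and proteins are transcribed and decay in different ways, and a ratio of RNA levels is not the make-up of the enzyme.

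**Figure D3:**
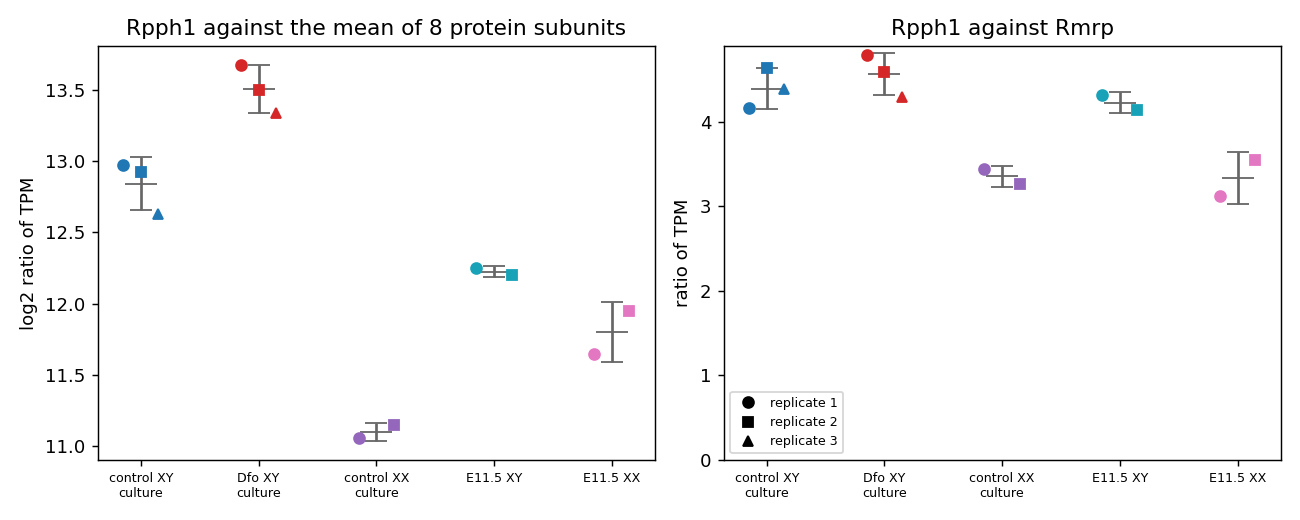
Log2 ratio of Rpph1 to the mean of the 8 protein subunit mRNAs, and the ratio of Rpph1 to Rmrp, in each library by group; points are libraries and crossbars are the mean ± SD. The log2 ratio of Rpph1 to the subunits lies at 11.06 and 11.15 in cultured XX and at 13.34 to 13.67 in Dfo XY, and the Rpph1 to Rmrp ratio is 4.14 to 4.79 in the XY libraries and 3.12 to 3.55 in the XX libraries.

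Dfo XY was compared with control XY in culture to see what Dfo did in these cells. On log2(TPM + 1), Rpph1 was 0.28 higher in Dfo XY (1.21-fold) and Rmrp 0.22 higher (1.17-fold). The libraries overlapped for both RNAs. Each Dfo library was above the control library of the same replicate number. Whether the numbers pair the cultures is not known, so this is not a paired result. Without Dfo XY replicates 1 and 2, the libraries that held Xist, 1 Dfo library is left, whose 19.5% for Rpph1 lies within the 15.3% to 20.3% of the controls.

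Of the 8 protein subunits, 2 fell in Dfo XY and 0 rose. Over all 16133 genes tested with limma, 15.5% were called at an adjusted p below 0.05, 4.98% higher and 10.5% lower. The median log2 difference was -0.37 over the 8 subunits and -0.17 over all genes. Rpp25 (chr9:57504026-57505448 of mm10) was at 57.9, 54.2 and 57.6 TPM in control XY and at 30.1, 40.6 and 39.1 TPM in Dfo XY, with no overlap. It fell by 0.63 ± 0.15 (SE) on the log2 scale (adjusted p = 0.0168, limma with Benjamini-Hochberg adjustment). Rpp40 (chr13:35893472-35906359) was at 4.22, 4.28 and 4.36 TPM in control XY and at 1.44, 1.99 and 1.99 TPM in Dfo XY, and fell by 0.92 ± 0.26 (adjusted p = 0.0318, limma).

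The size of both differences held better than their calls. Leaving out single libraries gave log2 differences of -0.70 to -0.49 for Rpp25 and of -0.97 to -0.82 for Rpp40. The call of Rpp25 was lost without control XY replicate 1 (adjusted p = 0.0581), without Dfo XY replicate 1 (0.074), without the 2 Dfo libraries that held Xist (0.194), with replicates 1 and 2 of each cultured XY group averaged (0.0936) and with median-of-ratios scaling (0.0696), with limma in each, at -0.61 to -0.48. That of Rpp40 was lost when any 1 of the 6 cultured XY libraries was left out (0.0515 to 0.114), and without the Xist-holding libraries (0.298), with the averaged replicates (0.188), with quantile normalization (0.0973) and with no filter on low values (0.0574), at -0.97 to -0.73. Leaving out the Xist-holding libraries leaves 1 Dfo library, which is then assumed to vary like the libraries of the other groups. Markers of 3 cell types moved the same way without overlap. Gonadal somatic markers summed to 615 to 694 TPM in Dfo XY against 786 to 977 TPM in control XY, with 4 of 8 called lower. Neural crest markers summed to 36.95 to 59.4 TPM against 76.3 to 164 TPM, with 2 of 8 called lower, and mesonephric markers to 59.2 to 101.3 TPM against 116 to 140.25 TPM, with 2 of 8 called lower. Their part in these results was not tested.

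The other 6 subunits were not called. Pop7 was at 19.1, 19.0 and 24.8 TPM in control XY and at 13.5, 16.6 and 7.75 TPM in Dfo XY, without overlap, at a log2 difference of -0.74 ± 0.36 (adjusted p = 0.201, limma). With Rpp25 and Rpp40 this made 3 of 8 subunits with all Dfo libraries below all controls, where 26.5% of all genes tested lay so. Rpp30 had a log2 difference of -0.46 ± 0.20 (adjusted p = 0.149, limma), Pop5 -0.28 ± 0.23, Pop1 -0.20 ± 0.15 and Pop4 -0.19 ± 0.16. Rpp38, at 8.76 to 11.85 TPM in control XY and 11.7 to 12.65 TPM in Dfo XY, was the exception in sign, at 0.18 ± 0.24 (adjusted p = 0.657, limma).

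**Figure D4:**
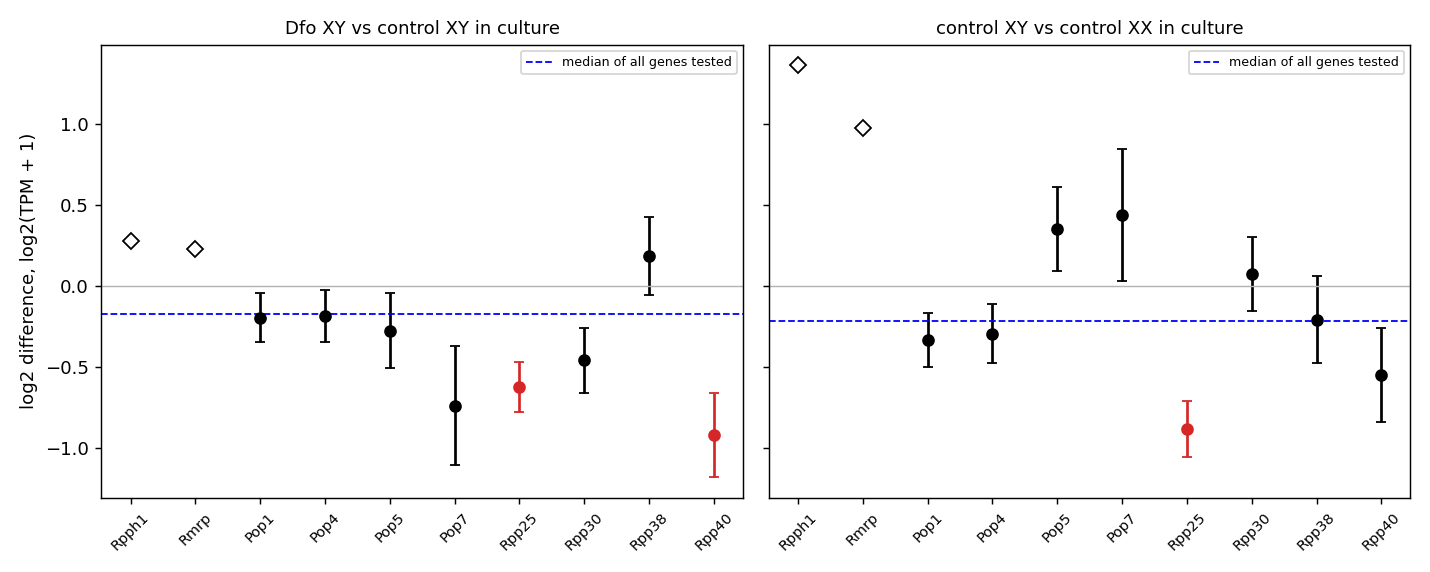
Log2 difference of TPM + 1 for the 2 RNAs and the 8 protein subunits in Dfo XY against control XY and in control XY against control XX in culture, with bars of 1 standard error for the proteins and none for the RNAs, which were not tested; called genes are red and the dashed line is the median of all genes tested. The RNAs lie above 0 in both panels, Rpp25 is red in both, at -0.63 and -0.88, and Rpp40 is red in the Dfo panel, at -0.92.

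None of the remaining subunits was called either. Rpp14 and Rpp21, RNase P proteins outside the 8 listed, and Rpp25l, a relative of Rpp25, had log2 differences of -0.39, -0.68 and -0.51 in Dfo XY, and limma called 0 of 3 (0 at an unadjusted p below 0.05). Nepro, also proposed as a subunit, was not analysed here. Mitochondria use a separate RNase P made only of protein, whose members Trmt10c, Hsd17b10 and Prorp (1110008L16Rik) differed by 0.15, -0.45 and -0.37. Limma called 0 of these 3, with 1 at an unadjusted p below 0.05 (Hsd17b10, adjusted p = 0.0672).

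In the steps around these enzymes, the shares of genes called with Dfo are read against the 4.98% of all genes called higher and the 10.5% called lower. Of 13 genes of tRNA end processing and splicing, 1 fell and 0 rose, Elac2, the RNase Z that trims the 3′ end of tRNAs (-0.36, adjusted p = 0.0447, limma), a call lost under 15 of the 22 alternatives, among them leaving out any 1 of the 6 cultured XY libraries. Of 13 subunits of RNA polymerase III, which makes both RNAs, limma called 0 (1 at an unadjusted p below 0.05). Of 19 initiation factors and repressors of that polymerase 2 fell. Snapc5, a subunit of the complex that binds the promoters of such RNAs, was at 26.9, 27.9 and 29.8 TPM in control XY and at 10.4, 15.98 and 13.3 TPM in Dfo XY, and fell by 1.06 ± 0.21 (adjusted p = 0.00487, limma). Gtf3c6, a subunit of TFIIIC, fell by 0.71 ± 0.15 (adjusted p = 0.0067, limma). Without the 2 Xist-holding libraries, which leaves 1 Dfo library with its spread taken from the other groups, Snapc5 stood at -1.03 (adjusted p = 0.0629, limma) and Gtf3c6 at -0.63 (0.146). Leaving out single libraries lost neither call. Of 20 nucleolar genes of ribosomal RNA processing 1 rose, Nop14, a factor of the small ribosomal subunit, at 73.9 to 83.2 TPM in control XY and 119 to 142 TPM in Dfo XY (0.73 ± 0.12, adjusted p = 0.00155, limma). The 2 of 19 lower and the 1 of 20 higher are near the shares over all genes.

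Among the comparisons made here, control XY against control XX in culture had the largest differences in both RNAs, and it shares its control XY libraries with the comparison of Dfo. Rpph1 was 1.36 higher in XY on the log2 scale (2.57-fold) and Rmrp 0.97 higher (1.96-fold), with no overlap. Of all genes tested, 53.7% had no overlap between these groups. All-gene values were shifted with the RNAs, at a median of -0.22. Leaving both RNAs out of the total brought that median to 0 and the differences of the RNAs, set against the rest, to 1.59 and 1.20. Markers of 5 cell types also differed between these groups without overlap. Gonadal somatic markers were lower in XY, at 786 to 977 TPM against 1471 to 1527 TPM in XX (5 of 8 called lower, median log2 difference -0.85). Neural crest markers were higher, at 76.3 to 164 TPM against 34.8 to 45.75 TPM (6 of 8 called), as were mesonephric markers, at 116 to 140.25 TPM against 59.3 to 88.2 TPM (4 of 8), and macrophage markers, at 55.3 to 102 TPM against 33.3 to 47.3 TPM (3 of 8). Erythroid markers were at 325 to 2527 TPM in XY and 233 to 261 TPM in XX (4 of 8 called higher). Within control XY, replicate 3 had the lowest Rpph1 share, 15.3%, where XX had 7.20% and 6.96%. The same library had the lowest erythroid (325 TPM), neural crest (76.3 TPM) and macrophage (55.3 TPM) sums of its group. Its gonadal somatic (977 TPM) and mesonephric (140.25 TPM) sums were the highest. The part of these 5 cell types in the differences of the RNAs and of the subunits below was not tested.

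Of the 8 subunits 1 was lower in XY and 0 were higher, where 25.2% of all genes tested were called with limma, 2.97% higher and 22.2% lower. The called subunit was Rpp25, at 54.2 to 57.9 TPM in XY against 128.6 and 85.7 TPM in XX, a log2 difference of -0.88 ± 0.17 (adjusted p = 0.00408, limma). Its call held with both RNAs left out of the total (-0.66, adjusted p = 0.0337), and was lost without control XX replicate 1 (0.0543), with median-of-ratios scaling (0.093) and with quantile normalization (0.178), with limma in each. Rpp40 was at 4.22 to 4.36 TPM against 8.16 and 5.55 TPM (-0.55 ± 0.29, adjusted p = 0.189, limma), and Pop1 at 14.2 to 16.6 TPM against 21.5 and 17.5 TPM (-0.33 ± 0.17, adjusted p = 0.165). Pop7 stood the other way, at 19.0 to 24.8 TPM in XY and 13.4 and 17.1 TPM in XX (0.44 ± 0.41, adjusted p = 0.465, limma). With Rpp25 these made 4 of 8 subunits whose groups did not overlap, where 53.7% of all genes tested did not.

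Pop5 differed by 0.35 ± 0.26, Pop4 by -0.30 ± 0.18, Rpp38 by -0.21 and Rpp30 by 0.07, and limma called none of these 4. The median over the 8 subunits was -0.25, near the -0.22 of all genes, and it was -0.04 with both RNAs left out of the total and 0.06 with median-of-ratios scaling. Rpp14, at no more than 19.8 TPM in XY and 24.5 and 23.0 TPM in XX, was lower in XY (-0.70 ± 0.22, adjusted p = 0.0363, limma), a call lost with both RNAs left out of the total and without any 1 of control XY replicates 1 and 2 and control XX replicates 1 and 2. The 3 mitochondrial proteins were not called.

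In the lists around the enzymes most calls were lower in XY, as over all genes, where 3585 of 4064 calls (22.2% of the genes tested) were lower. With the 2 RNAs left out of the total, 1656 genes were called, 1120 of them lower, and the lists had fewer calls too. Of 13 tRNA end processing genes 5 were lower and 0 higher with limma, among them Elac2 (-0.54 ± 0.12), Ddx1 (-0.54 ± 0.14), an RNA helicase of the tRNA ligase, Trnt1 (-0.59 ± 0.17), which adds the CCA end, and Rtcb (-0.44 ± 0.12), the tRNA ligase itself. With both RNAs left out of the total, 0 were called. Of 13 polymerase III subunits 4 were lower, led by Polr3c (-0.86 ± 0.18), and 1 was with the RNAs left out. Of 20 nucleolar genes 6 were lower, led by Ncl (nucleolin, -0.65 ± 0.15), and 1 was with the RNAs left out. With median-of-ratios scaling limma called 0 in each of these 3 lists. The calls of Polr3c and Ncl were lost without control XX replicate 1, that of Elac2 without control XX replicate 2, and those of Ddx1, Trnt1 and Rtcb without any 1 of control XY replicates 1 and 2 and control XX replicates 1 and 2.

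Among the 19 initiation factors 4 were lower in XY and 1 higher, near the 22.2% and 2.97% of all genes tested. Gtf3c1, the largest subunit of TFIIIC, was at 75.6, 79.97 and 94.3 TPM in XY and 141 and 149 TPM in XX (-0.80 ± 0.14, adjusted p = 0.0024, limma), and Bdp1, a subunit of TFIIIB, differed by -0.66 ± 0.14 (adjusted p = 0.00549). Gtf3a, TFIIIA, was the one higher in XY, at 35.3 to 44.7 TPM against 21.0 and 29.4 TPM (0.68 ± 0.21, adjusted p = 0.0347, limma), and its call was lost without control XY replicate 1 or 2 or control XX replicate 1. The calls of Bdp1 and Gtf3c1 were lost with quantile normalization, and that of Bdp1 also with median-of-ratios scaling and without control XX replicate 1. With both RNAs left out of the total, 2 of the 19 were called lower and 2 higher.

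Of 22 other short structured RNAs listed, 8 had a row, 6 were at 0 in every library and 2 were tested. Both were called higher in cultured XY, where 2.97% of all genes tested were called higher. Terc, the template RNA of telomerase, was at 120.2, 98.3 and 69.6 TPM in XY and 44.6 and 62.7 TPM in XX (0.81 ± 0.26, adjusted p = 0.0365, limma). Vaultrc5, a vault RNA made by polymerase III, was at 39.1, 16.2 and 11.1 TPM in XY and listed at 0 and 4.20 TPM in XX (3.15 ± 0.63, adjusted p = 0.00455, limma). Both calls were lost without control XX replicate 1, and that of Terc also without control XY replicate 1 or 2. The call of Terc was lost too with no filter on low values and with replicates 1 and 2 of cultured XY averaged. The ribosomal RNA precursor Rn45s stood the other way, at 7562 to 9611 TPM in XY and 14237 and 15612 TPM in XX.

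Genes were also split by transcript length, a split added after the data had been seen. In cultured XY against XX the median log2 difference was 0.12 for 410 genes under 500 bases, and -0.22, -0.17, -0.27 and -0.34 for the classes from 500, 1000, 2000 and 4000 bases. In Dfo XY against control XY the class under 500 bases was at -0.22 and that from 4000 bases at -0.10. Short genes of at most 400 bases, without the 2 RNAs, held 4.45% to 4.57% of the remaining TPM in control XY, 2.67% and 2.81% in control XX and 4.09% to 4.82% in Dfo XY. The share of other short genes was thus lower in cultured XX too, and what the length of an RNA contributes to the difference of Rpph1 and Rmrp was not tested.

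**Figure D5:**
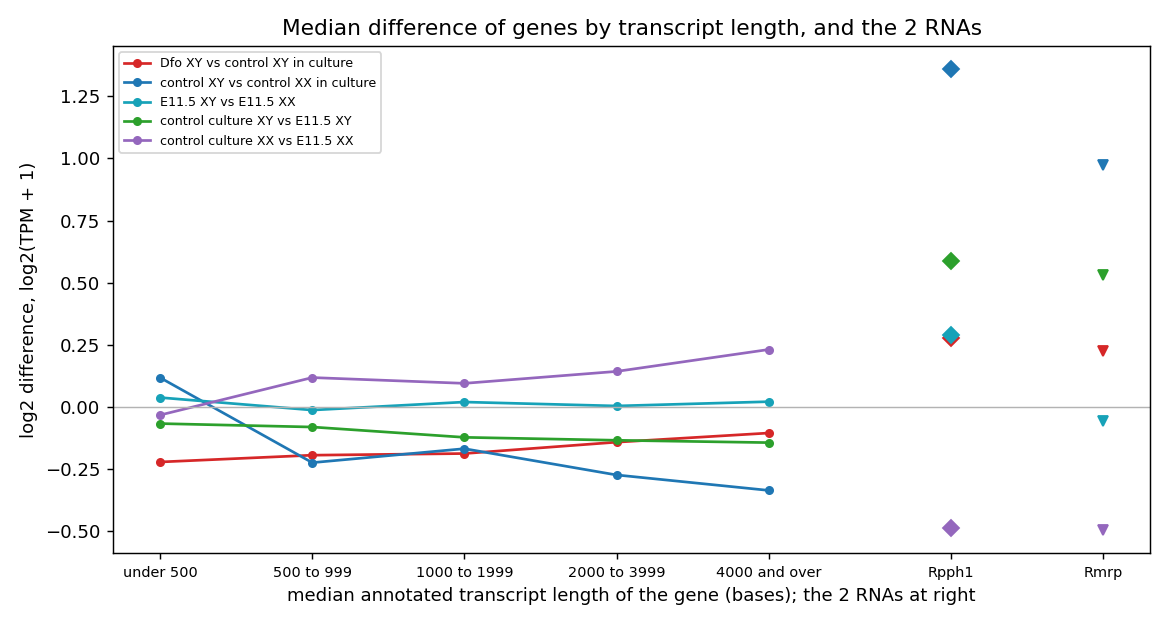
Median log2 difference of TPM + 1 for genes in 5 classes of transcript length (x axis, bases), 1 line per comparison, with Rpph1 and Rmrp at the right. In cultured XY against XX the class under 500 bases is at 0.12 and the longest class at -0.34, while Rpph1 is at 1.36 and Rmrp at 0.97.

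At E11.5 the sexes were closer. Rpph1 was 0.29 higher in XY on the log2 scale (1.22-fold), with libraries at 12.2% and 12.02% against 8.57% and 11.47%. Rmrp overlapped between the sexes and differed by -0.06. Limma called 0 of the 8 subunits (1 at an unadjusted p below 0.05), where 2.29% of all genes tested were called. Rpp25 was again lower in XY, at 54.4 and 51.4 TPM against 68.6 and 84.3 TPM, without passing the test (-0.52 ± 0.19, adjusted p = 0.157, limma). The excess of the cultured sex difference over the E11.5 one was 1.07 for Rpph1 and 1.03 for Rmrp, which were not tested. For the subunits it ranged from -0.46 for Rpp40 to 0.79 for Pop7, and limma called 0 of 8 (0 at an unadjusted p below 0.05, and 1.33% of all genes were called).

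Control cultures were then set against E11.5 gonads of the same sex, groups that differ in age and culture at once. In XY, Rpph1 was 0.59 higher in culture (1.502-fold) and Rmrp 0.53 higher (1.45-fold), with no overlap. In XX, Rpph1 was 0.49 lower in culture (1.40-fold) and Rmrp 0.50 lower (1.41-fold), again with no overlap. The share of all genes without overlap is not given for these comparisons, so the lack of overlap is only a description. Both RNAs thus stood on opposite sides of E11.5 in the 2 sexes. Medians of 3 marker lists also had opposite signs in XY and XX, at 1.16 (2 of 8 called higher) and -0.25 (0 called) for neural crest, 0.75 (2 called higher) and -0.26 (1 called higher) for macrophages, and -0.24 (0 called) and 0.19 (1 called higher) for gonadal somatic markers. The macrophage median in XX came from 4 genes higher and 4 lower in culture. Their sum there was 33.3 and 47.3 TPM in culture against 34.1 and 28.1 TPM at E11.5, so it was not lower in culture. Endothelial markers were lower in culture in both sexes, at 72.2 to 154 TPM against 216 to 230 TPM in XY and 111 to 121 TPM against 295 to 344 TPM in XX. Erythroid markers in XY summed to 2200, 2527 and 325 TPM in culture against 3363 and 2579 TPM at E11.5, with 0 of 8 called. In XX they summed to 233 to 261 TPM in culture against 1321 to 1841 TPM at E11.5, with 4 of 8 called lower. The part of these cell types was not tested.

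Limma called 0 of 8 subunits in XY, where 5.66% of all genes were called, and 0 of 8 in XX, where 9.07% were, with 1 subunit at an unadjusted p below 0.05 in each. In XY this was Pop1, at 14.2 to 16.6 TPM in culture and 19.6 and 20.8 TPM at E11.5 (-0.38 ± 0.17, adjusted p = 0.188, limma). In XX it was Rpp25, at 128.6 and 85.7 TPM in culture and 68.6 and 84.3 TPM at E11.5 (0.46 ± 0.19, adjusted p = 0.152, limma), which was called only without control XX replicate 2 (adjusted p = 0.0476). Medians over the 8 subunits were -0.04 in XY and 0.08 in XX, beside -0.11 and 0.12 over all genes.

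Of the surrounding lists, Trmt10c, the methyltransferase subunit of mitochondrial RNase P, was lower in cultured XY, at 23.9 to 33.1 TPM against 42.6 and 46.7 TPM (-0.70 ± 0.17, adjusted p = 0.0371, limma). Gtf3c6 (-0.69 ± 0.16) and Npm1 (nucleophosmin, -0.52 ± 0.12) were lower there and Terc was higher (1.05 ± 0.26). In XX, Snapc3 (0.84 ± 0.22) and Nop14 (0.55 ± 0.15) were higher in culture and Vaultrc5 was lower (-2.63 ± 0.69). Each of these 7 calls was lost when some single library was left out, E11.5 XY replicates 1 and 2 and control XY replicates 1 and 2 among them in XY, and E11.5 XX replicate 1 and 1 or both control XX replicates in XX. The tRNA end processing list and the polymerase III subunits had 0 calls in both sexes, with 4 and 0 in XY and 2 and 2 in XX at an unadjusted p below 0.05 with limma.

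Over the 12 libraries, the gene whose level on log2(TPM + 1) was most like that of Rpph1 was Rmrp (Pearson r = 0.98), among 10464 genes with a mean of at least 5 TPM. Next came Rps14 (ribosomal protein, 0.91), Dpysl5 (0.90), Rabac1 (0.90), H2-D1 (a class I histocompatibility gene, 0.88) and Cldn4 (a claudin, 0.87). Least like it were Eif4g2 and Ddx6, both at -0.99. For Rmrp the order was Rpph1 (0.98), H2-D1 (0.92), Dpysl5 (0.91) and Rabac1 (0.88), and at the other end Gspt1 and Numa1, both at -0.99. The libraries fall into 5 groups and share a fixed total, which by itself sets other genes against the 2 RNAs, so these are descriptions without a test. With both RNAs left out of the total, a scaling added after the data had been seen, r was 0.96 for Rps14 and -0.96 for Eif4g2.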

How the data were processed

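The authors deposited 1 table of TPM per library, made with STAR 2.7.10b, RSEM and R 4.1.2 on mm10, per the submitters' processing notes. RSEM's version, the gene annotation and filters: not given in the sources used here. Per the labels' protocols, libraries were made from total RNA of NR5A1(+) cells with the SMART-Seq Stranded Kit. TPM keeps no depth, so counting intervals and detection limits were left out.

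Here, genes with at least 1 TPM in at least 2 libraries (16133) were put on the log2(TPM + 1) scale and fitted with limma 3.58.1 (R 4.3.3). That scale understates changes of low genes. The fit had 1 coefficient per group, a variance trend and all 12 libraries, and Benjamini-Hochberg adjustment ran over all genes of a comparison, with calls below an adjusted p of 0.05. The method was tested on simulated data whose libraries varied independently and were not scaled to a fixed sum. That setting holds neither the close replicates 1 and 2 nor the fixed total of these data, so it cannot speak to their effect. Genes were placed with GENCODE M21 (23376 symbols matched). Alternatives were other scalings, pseudocounts, filters, sample sets, single libraries left out and a replicate block.

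Pairing of the XY cultures by replicate number was checked by correlating deviations from group means across genes. Same numbers gave r of 0.21, 0.12 and 0.34. Control replicate 1 also gave 0.14 with Dfo replicate 2. Control replicate 2 gave 0.18 with Dfo replicate 1, more than with its own number. Pairing by number thus cannot be told apart from the closeness of replicates 1 and 2 within each group. The main fit took no pairing. The genes, the lists of related genes, the tests and the alternatives were chosen with earlier results of these data known. Named genes were the 10 genes, every measured gene of the other subunits, the RNA-like copies and mitochondrial RNase P, up to 4 called genes of each other list per comparison by smallest adjusted p, and the genes most and least like the 2 RNAs, leaving out predicted genes, Y-linked genes and Xist. The neighbouring genes, Gtf3a, Rn45s, Snord17, Xist and Ddx3y were added after their values were seen.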

Additional observations from a re-analysis of the deposited data

Results flagged for a closer look

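Both RNAs stood on opposite sides of their E11.5 level in the 2 sexes. The mean log2 difference of control culture from E11.5 was 0.59 for Rpph1 in XY and -0.49 in XX, and every library of one group lay beyond every library of the other in both sexes. For Rmrp the same differences were 0.53 in XY and -0.50 in XX, again with no overlap. The share of all genes without overlap is not given for these comparisons. In cultured XY against XX it was 53.7%, so a lack of overlap is common between groups this small. This difference between the sexes was not tested, since the 2 RNAs had been chosen for their levels.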

How the results depend on the processing

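The sign of the difference of Rpph1 held under every alternative run in each comparison, and that of Rmrp in all but E11.5 XY against XX, where leaving out single libraries gave -0.17 to 0.06. With both RNAs left out of the total, Rpph1 and Rmrp differed by 1.59 and 1.20 in cultured XY against XX, and by 1.27 and 1.22 in the interaction, the excess of the cultured sex difference over the E11.5 one. With median-of-ratios scaling these were 1.69, 1.30, 1.36 and 1.31, Rmrp differed by 0.38 with Dfo, and cultured XX against E11.5 XX gave -0.67 and -0.68. Quantile normalization gives ranks 1 and 2 the same value in every library, so it was not applied to the RNAs. Leaving out single libraries gave Rpph1 differences of 0.078 to 0.50 at E11.5, -0.70 to -0.28 in cultured XX against E11.5 XX and 0.86 to 1.28 in the interaction. Weighting TPM by transcript length brought the mean shares of Rpph1 and Rmrp to 5.63% and 1.11% in control XY, 6.99% and 1.32% in Dfo XY, 1.79% and 0.461% in control XX, 3.49% and 0.715% in E11.5 XY, and 2.80% and 0.721% in E11.5 XX. Against the median subunit, the log2 ratios were 13.27 and 11.14, 13.97 and 11.78, 12.10 and 10.35, 12.62 and 10.54, and 12.53 and 10.797 in the same order. The count of subunits called with Dfo, 2, was 1 with median-of-ratios scaling, quantile normalization or no filter, 0 without the 2 Xist-holding libraries or with replicates 1 and 2 averaged, and 0 to 2 without single libraries. In cultured XY against XX the count, 1, was 0 with median-of-ratios scaling and quantile normalization and 0 to 1 without single libraries, and in cultured XX against E11.5 XX it was 0 to 1. Over all genes, 2498 were called with Dfo, 901 without the Xist-holding libraries, 850 with averaged replicates and 1490 to 2670 without single libraries. Cultured XY against XX gave 4064, and 1656 with both RNAs left out, 1028 with median-of-ratios scaling, 614 with quantile normalization, 1774 with averaged replicates and 1920 to 4352 without single libraries. Its 479 higher and 3585 lower genes became 536 and 1120, 529 and 499, and 291 and 323 under these 3 scalings, and the 803 and 1695 of Dfo became 1146 and 1288, 1521 and 1023, and 1291 and 1193. The split of cultured XY against E11.5 XY, 422 and 491, became 697 and 322, 617 and 425, and 737 and 518, that of cultured XX against E11.5 XX, 1187 and 276, became 940 and 288, 474 and 378, and 426 and 278, and that of the interaction, 31 and 184, became 21 and 27, 21 and 13, and 29 and 24. E11.5 XY against XX gave 370, and 565 with no filter, 104 without the Xist-holding libraries, 94 with averaged replicates, 30 with its own groups only and 53 to 636 without single libraries. Cultured XY against E11.5 XY gave 913, and 195 with averaged replicates, 427 with its own groups only and 275 to 1489 without single libraries. Cultured XX against E11.5 XX gave 1463, and 852, 704, 857 and 671 with median-of-ratios scaling, quantile normalization, averaged replicates and its own groups only, and 432 to 1682 without single libraries. The interaction gave 215, and 48, 34 and 53 under the 3 scalings, 20 without the Xist-holding libraries, 7 with averaged replicates, 20 with its own groups only and 14 to 731 without single libraries. With the replicate block, the pairing by number, 925, 1516, 929 and 1742 genes were called at E11.5, in cultured XY against E11.5, in cultured XX against E11.5 and in the interaction, and Rpph1 and Rmrp differed by 0.79 and 0.69 in cultured XY against E11.5 XY. The block changed no subunit call. Signs turned for genes that were not called, Pop5 with Dfo without the Xist-holding libraries (0.083), and in cultured XY against XX Pop4 with median-of-ratios scaling (0.031) and quantile normalization (0.12), Rpp38 with median-of-ratios scaling (0.092) and without single libraries (-0.57 to 0.15), and Rpp30 without single libraries (-0.11 to 0.24), as well as for Gtf3c2, a subunit of TFIIIC called lower there, with quantile normalization (0.081). The causes of these changes were not tested. The unknown depth limits what can be said of low genes such as Rpp40.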
